A study of Mus musculus with 24 samples.

Results

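The mitochondrial ribosomal protein genes are the nuclear genes named Mrpl and Mrps followed by a number. They were taken by name alone, as every non-control probe of the arrays whose gene name begins with Mrpl or Mrps and a digit, and the rule itself uses no measured value. The rule found 137 spots of 110 probes for 78 genes, among 29711 named features in all. Of the 78 genes, 77 had a probe well above background on at least 5 of the 24 arrays and were tested together with all 15787 genes that passed the same filter. The exception was Mrpl35, whose probe was well above background on 1 array and which was not tested. Among the 77 tested genes, 50 belong to the large subunit of the mitochondrial ribosome and 26 to the small subunit, counting Mrps30 and Mrps18a with the large subunit, where their proteins sit despite their names. The remaining one, Mrps36, keeps its old name although its protein is now known as a component of the 2-oxoglutarate dehydrogenase complex.

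Mitochondria keep their own ribosome, which translates only the few mRNAs of mitochondrial DNA, all of them for subunits of the respiratory chain and ATP synthase. Its RNAs are made inside the organelle, whereas all of its proteins are encoded in the nucleus, made in the cytosol and imported, so the ribosome depends on the output of both genomes. Some of these proteins have counterparts in the bacterial ribosome and others were gained during the evolution of mitochondria. In blood, lymphocytes, monocytes and platelets hold mitochondria, mature neutrophils hold few, and red cells lose theirs together with their ribosomes as reticulocytes mature.

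RNA was measured in blood of male C57BL/6J mice, collected by cardiac puncture 24 h after x-rays, in 4 groups: 9 arrays of genotype Gadd45aKO at 7 Gy, 5 arrays of Gadd45aKO at 0 Gy, 5 arrays of Gadd45aWT at 7 Gy and 5 arrays of Gadd45aWT at 0 Gy. Gadd45a is a gene induced by DNA damage and growth arrest, and the series asks how its loss bears on blood tests of radiation dose. The labels give neither the animals' age nor how the allele was made, and call the arrays independent experiments without naming an animal, so p-values measure the spread between these arrays. Arrays with the same replicate number, from 1 to 5, shared a slide across the 4 groups, and Gadd45aKO arrays 6 to 9 at 7 Gy had a slide of their own.

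Values are log2 processed signals minus the 75th percentile of their array, called the scaled log2 signal below, so levels are relative to each array's other transcripts and levels of different probes cannot be compared. The Gadd45a probe does not separate the genotypes without irradiation. It stood at 0.55 ± 0.15 in Gadd45aKO and 0.67 ± 0.24 in Gadd45aWT at 0 Gy (SD, n = 5 each), a difference of -0.13 ± 0.19 (SE, adjusted p = 0.859) by limma with Benjamini-Hochberg adjustment. At 7 Gy it stood at 0.021 ± 0.34 (SD, n = 9) in Gadd45aKO and at -1.19 ± 0.32 (SD, n = 5) in Gadd45aWT, higher by 1.21 in Gadd45aKO. Whether the probe lies outside the deleted part is not given in the sources used here. The groups are therefore called KO-labelled and WT, and every direction given for KO-labelled arrays follows the label alone.

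Some arrays stand apart. Repeat spots varied by 12.3% to 16.4% on KO-labelled 0 Gy array 2, KO-labelled 7 Gy array 3 and WT 0 Gy array 1, against 4.61% to 8.13% on the others. KO-labelled 0 Gy arrays 1 and 4 were the most alike of any pair within a group, differing 1.13 times as much as repeat spots within an array, and were kept apart. Between 25.9% and 51.4% of an array's probes were well above background, fewest on KO-labelled 7 Gy array 5. The mean level of 9 hepatocyte genes, which blood should lack, ran from -4.97 to -2.21 at 7 Gy and from -8.06 to -4.20 at 0 Gy in KO-labelled arrays, against -2.50 to 1.18 at 7 Gy and -7.58 to -7.11 at 0 Gy in WT. WT 7 Gy arrays 3 to 5, at 0.98 to 1.18, were above every other array in these genes and in neutrophil genes.

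The promoters of these genes are shown because the letters bound by NRF1, by ETS factors such as GABP and by YY1, regulators tied by earlier work to nuclear genes of mitochondria, recur in them. RefSeq windows on GRCm38.p6, from 250 bases before to 50 bases after a transcript start, were found for 69 of the 78 genes, 75 windows in all. The NRF1 letters GCGCATGCG stood, on either strand, in 9.33% of the 75 windows, against 1.75% of the 32851 windows of all genes. The ETS letters CCGGAAG stood in 34.7% against 8.86%, and the YY1 letters ATGGCGG in 17.3% against 4.05%. Base composition of the windows was not matched, and a match means these letters only. Windows of genes lower in irradiated KO-labelled arrays held at least one of the 3 motifs in 16 of 36 cases (44.4%), and windows of the other tested members in 20 of 38 (52.6%). The 130 bases before the start, 5′ to 3′ on the gene's strand, follow for the 5 named genes with a match there in the window of the gene's outermost start, with matches on either strand in capitals. The NRF1 letters overlap their own reverse complement, so a run of 10 capitals is a match on both strands. Mrps16 and Mrpl48 have an ETS match in the same stretch before another of their starts.
Mrps22, chr9:98601680-98601809, minus strand, ETS: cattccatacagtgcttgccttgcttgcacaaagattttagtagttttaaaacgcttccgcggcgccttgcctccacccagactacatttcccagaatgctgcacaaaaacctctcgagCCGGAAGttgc
Mrpl39, chr16:84735245-84735374, minus strand, NRF1: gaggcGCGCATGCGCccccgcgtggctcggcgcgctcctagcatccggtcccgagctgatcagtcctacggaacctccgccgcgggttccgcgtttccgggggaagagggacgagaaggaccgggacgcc
Mrpl32, chr13:14613038-14613167, minus strand, NRF1: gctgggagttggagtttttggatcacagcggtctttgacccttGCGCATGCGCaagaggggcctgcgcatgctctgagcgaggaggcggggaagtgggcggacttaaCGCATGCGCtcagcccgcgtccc
Mrps18a, chr17:46110874-46111003, plus strand, ETS: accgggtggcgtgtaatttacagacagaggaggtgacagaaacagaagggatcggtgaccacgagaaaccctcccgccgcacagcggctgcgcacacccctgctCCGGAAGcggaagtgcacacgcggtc
Mrps27, chr13:99344656-99344785, plus strand, ETS: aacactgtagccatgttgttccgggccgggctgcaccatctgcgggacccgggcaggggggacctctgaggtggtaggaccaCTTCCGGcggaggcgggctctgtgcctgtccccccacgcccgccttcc
Of these 5 genes, Mrps22, Mrpl39 and Mrpl32 were lower in irradiated KO-labelled arrays, and Mrps18a and Mrps27 did not pass the test.

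In KO-labelled arrays, 24 h after 7 Gy, 43 of the 77 tested genes were lower and 2 were higher than at 0 Gy (limma, adjusted p under 0.05 over all genes). That is 55.8% lower, where 36.3% of all tested genes were lower, and 2.60% higher, where 14.0% of all tested genes were higher. The median change of the 77 genes was -0.57 on the log2 scale, against -0.23 over all genes. Below 0 were 70 of the 77 changes, and 9282 of the 15787 changes of all genes. The groups did not overlap, with every 7 Gy array below every 0 Gy array, for 15 of the 77 genes, a share close to the 19.0% of all genes. Fewer cells of a type and less RNA per cell cannot be told apart in whole blood.

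Array by array, the median level of the 77 genes was -3.61 at the lowest, -3.18 at the median and -2.69 at the highest of the 9 irradiated KO-labelled arrays. At 0 Gy it was -2.74, -2.58, -2.81, -2.72 and -2.54 in KO-labelled arrays 1 to 5. The irradiated group spread more widely, and its highest array, number 9, lay within the range at 0 Gy. In WT the medians were -2.91, -2.79, -3.04, -2.90 and -2.88 at 7 Gy and -3.04, -2.91, -2.96, -2.74 and -2.77 at 0 Gy, which overlap. Set against the median of all genes on the same array, the median of the 77 genes was higher by 0.69 to 1.56 in irradiated and 1.17 to 1.47 in unirradiated KO-labelled arrays, and by 0.999 to 1.36 at 7 Gy and 1.04 to 1.46 at 0 Gy in WT, so that all groups overlap on this measure. Within each of the 5 slides that hold both groups, the median change in KO-labelled arrays was below 0, from -0.77 to -0.41, and minus that of all genes it ran from -0.57 to -0.20.

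**Figure D1:**
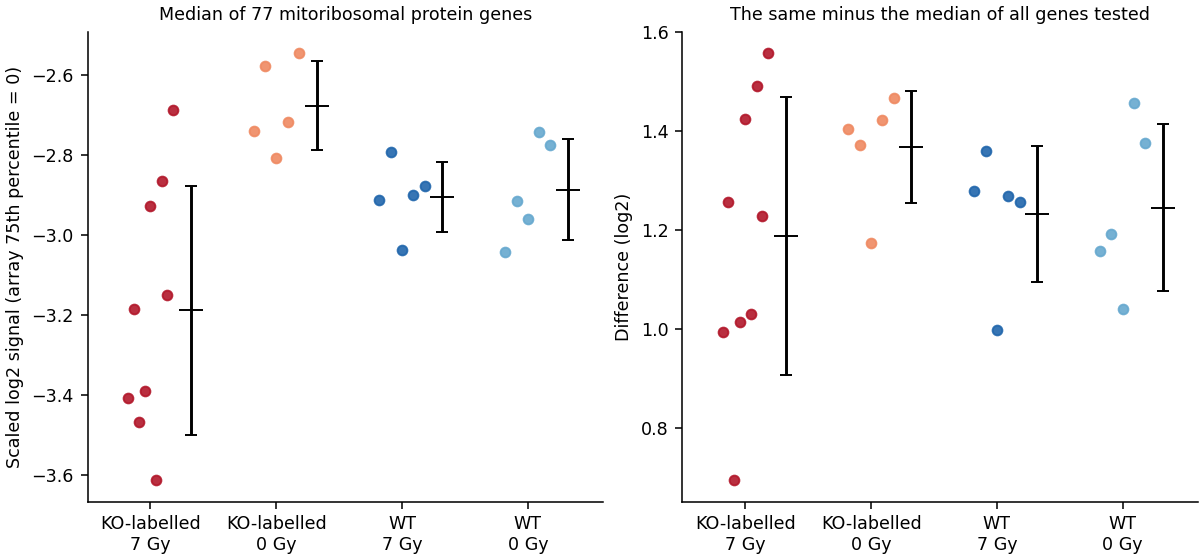
Median scaled log2 signal of the 77 tested mitochondrial ribosomal protein genes on each of the 24 arrays (points; y axis on the left in log2 relative to the array's 75th percentile, on the right in log2 relative to the median of all genes tested), with the mean and SD of each group. On the left the irradiated KO-labelled arrays run from -3.61 to -2.69 and the unirradiated ones from -2.81 to -2.54, while both WT groups lie between -3.04 and -2.74.

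How many genes pass depends on the scaling. The counts that follow have no share of all genes beside them and do not place the 77 genes against all genes. With each array set to its median, 14 were lower and 0 higher, with the percentile taken over all probes 24 and 3, with quantile normalization 30 and 4, and with normexp background correction 1 and 1. Without the 3 arrays of widely varying repeat spots 40 were lower and 3 higher, and in settings added after seeing the data, 38 and 2 with KO-labelled 0 Gy arrays 1 and 4 counted once, 42 and 4 without 3 arrays of low detection, and 47 and 2 without the slide of KO-labelled arrays 6 to 9. The change of the 77 genes relative to the median of all genes moved less, between -0.42 and -0.25 over these settings, against -0.34 as reported. It was -0.92 with no filter on dim probes, where the median of all genes was 0.35, and -0.20 over genes above background on every array. The median of all genes itself moved, from -0.23 as reported to -0.18 with median scaling, 0.06 with all probes, -0.082 with quantile normalization and 0.49 with normexp.

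Markers of blood cell types changed too, alike under both labels for some types and differently for others. Of all genes, 36.3% were lower and 14.0% higher under the KO label, and 14.0% lower and 10.3% higher in WT. All 8 B cell markers were lower in both responses, with a mean level of -6.45 to -4.30 at 7 Gy and -1.47 to -0.94 at 0 Gy in KO-labelled arrays, against -5.91 to -4.59 and -2.04 to -1.78 in WT. Of 8 T cell markers 6 were lower under the KO label and 2 in WT, with a mean level of -2.74 to -1.43 at 7 Gy and -1.18 to -0.87 at 0 Gy in KO-labelled arrays, against -1.84 to -0.96 and -1.36 to -1.10 in WT. Of 7 natural killer markers 4 were lower and 1 higher under the KO label while 2 were higher in WT. Of 7 neutrophil markers 6 were lower under the KO label and 0 in WT, where 1 was higher, with a mean level of -1.51 to 0.14 at 7 Gy and -0.43 to 0.69 at 0 Gy in KO-labelled arrays, against 0.45 to 2.03 and 0.38 to 0.88 in WT. In the direct test of the responses, 6 neutrophil, 4 T cell and 5 natural killer markers were more negative under the KO label, where 13.5% of all genes were. So were 6 of the hepatocyte genes and 1 monocyte marker. More positive were 2 erythroid and 2 platelet markers, where 3.41% of all genes were. B cell markers passed in 0 cases. Of 5 monocyte markers 2 were lower and 2 higher in each response. All 8 platelet markers were higher under the KO label and 6 in WT. Of 9 erythroid markers 4 were lower and 3 higher under the KO label, and 5 were lower in WT. Of 9 hepatocyte genes 8 were higher in each response. The part of these cells in the changes of the ribosomal protein genes was not tested.

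Both subunits held genes that were lower, where 36.3% of all genes were lower, 14.0% were higher and the median change was -0.23. Of 50 large-subunit genes 29 were lower and 1 higher in irradiated KO-labelled arrays, with a median change of -0.61, and of 26 small-subunit genes 14 were lower and 1 higher, with a median of -0.46. Genes for proteins with a bacterial counterpart and those found only in mitochondria were lower in like numbers in the large subunit, 17 of 29 and 12 of 21, and in the small subunit, 9 of 16 and 5 of 10. The 43 changes ran from -1.12 for Mrps22 to -0.35 for Mrpl4.

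Mrpl41, a large-subunit protein found only in mitochondria and known from human cells to bind the apoptosis inhibitor BCL2, gave one of the smallest adjusted p-values of the set. On the 9 irradiated KO-labelled arrays its level was -3.27 at the lowest, -3.08 at the median and -2.32 at the highest, against -2.01, -1.44, -2.13, -2.08 and -2.03 on the unirradiated ones. Every irradiated array was below every unirradiated one. The change was -0.998 ± 0.16 (SE, adjusted p = 1.59e-05), a 2-fold lower signal, and the probe lies at chr2:24829696-24829755 (mm9, minus strand). Mrpl49, another large-subunit protein without a bacterial counterpart, stood at -5.17 at the lowest, -4.73 at the median and -4.26 at the highest in irradiated arrays and at -3.89, -3.64, -4.08, -3.68 and -3.73 without irradiation. These groups did not overlap either, and the change was -0.90 ± 0.14 (SE, adjusted p = 1.04e-05).

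Mrpl39, also specific to mitochondria and carrying the NRF1 letters printed above, stood at -5.54 at the lowest, -4.47 at the median and -3.80 at the highest in irradiated KO-labelled arrays and at -3.65, -3.13, -3.35, -3.49 and -3.25 at 0 Gy. The lowest irradiated value came from array 6, and the groups did not overlap. Mrpl39 changed by -1.04 ± 0.21 (SE, adjusted p = 0.000188) at the probe chr16:84718547-84718606 (mm9, minus strand). Mrpl36, the counterpart of the small zinc-binding bacterial protein L36, stood at -4.10 at the lowest, -3.46 at the median and -2.69 at the highest after 7 Gy and at -2.68, -2.14, -2.64, -2.68 and -2.29 at 0 Gy. Irradiated array 9 came close to the lowest unirradiated arrays without crossing them, and the change was -0.87 ± 0.18 (SE, adjusted p = 0.000394). Among the alternatives run for Mrpl41, Mrpl49, Mrpl39 and Mrpl36, the calls ended under normexp alone, where Mrpl49 changed by 0.14 and Mrpl39 by 0.037, in the other direction.

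Mrpl44, whose protein resembles RNase III and in which human mutations cause cardiomyopathy, was lower, with a log2 change of -0.63 ± 0.17 (SE, adjusted p = 0.00318), again without overlap. Its call ended under median scaling (adjusted p = 0.171), the percentile over all probes (adjusted p = 0.133) and quantile normalization (adjusted p = 0.144), and under normexp the change turned to 0.33. Mrpl12, the stalk protein that in human cells also binds mitochondrial RNA polymerase, was moved by 1 array. Its level was -6.08 at the lowest, -3.34 at the median and -1.99 at the highest in irradiated KO-labelled arrays and -2.45, -2.19, -2.68, -2.40 and -1.84 at 0 Gy. The lowest value, on array 5, was not well above background and stood far below the other 8. With it the change was -1.09 ± 0.40 (SE, adjusted p = 0.026), and without it -0.75 ± 0.23 (SE, adjusted p = 0.0091). With all arrays the call ended under median scaling, the percentile over all probes, quantile normalization and normexp, and without KO-labelled 0 Gy array 5 (adjusted p = 0.0731). It also ended with no filter, with near-identical arrays averaged and without the arrays of widely varying repeat spots.

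Mrpl33, Mrpl4 and Mrpl57 had the brightest probes of the set and Mrpl37, Mrpl1 and Mrps5 the dimmest. Mrpl33, the counterpart of bacterial L33, stood at -2.39 at the lowest, 0.28 at the median and 1.06 at the highest after 7 Gy and at 0.88, 0.63, 0.76, 0.86 and 1.29 at 0 Gy in KO-labelled arrays. Its lowest value was again on array 5, and its change did not pass the test with that array, at -0.82 ± 0.36 (SE, adjusted p = 0.0596), and passed without it, at -0.52 ± 0.20 (SE, adjusted p = 0.0349). With the replicate block it passed as well, at -1.20 (adjusted p = 0.0185). That block rests on KO-labelled 7 Gy arrays 1 to 5, the low array 5 among them. Arrays 6 to 9 have replicate numbers of their own and add nothing to it. Mrpl4, which lines the exit tunnel, was lower, with a log2 change of -0.35 ± 0.14 (SE, adjusted p = 0.04), a call that ended without KO-labelled 0 Gy array 1, 2 or 4 or 7 Gy array 6, 7 or 9 (adjusted p = 0.0569 to 0.111) and with the replicate block (adjusted p = 0.238). It also ended with the slide block, median scaling, the percentile over all probes, normexp, no filter, near-identical arrays averaged, and without the 3 arrays of widely varying repeat spots or WT 7 Gy arrays 3 to 5 (adjusted p = 0.0535 to 0.732). Mrpl57, a mitochondria-specific protein, changed by -0.082 ± 0.63 (SE, adjusted p = 0.923) and did not pass. The dim probes of Mrpl37 and Mrpl1 were lower, with log2 changes of -0.85 ± 0.29 (adjusted p = 0.0175) and -0.69 ± 0.23 (adjusted p = 0.0161), and were well above background on 3 and 4 of the 9 irradiated arrays and on 4 of the 5 at 0 Gy. The call of Mrpl1 ended without unirradiated array 2 (adjusted p = 0.0736), where its change was -0.33, and that of Mrpl37 without unirradiated array 1 (adjusted p = 0.061) or 5 (adjusted p = 0.0736). Both calls ended under median scaling and the percentile over all probes, and that of Mrpl37 also under quantile normalization. That of Mrpl1 ended too with the replicate block (adjusted p = 0.0681), with array weights (adjusted p = 0.0589) and without the 3 arrays of widely varying repeat spots (adjusted p = 0.0502). Under normexp both turned, to 0.59 and 0.54.

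In the small subunit Mrps22 had the largest change and the smallest adjusted p. It is specific to mitochondria, and its human mutations cause cardiomyopathy and ovarian failure. Its level was -6.61 at the lowest, -5.79 at the median and -5.23 at the highest in irradiated KO-labelled arrays and -4.60, -4.72, -4.74, -4.81 and -4.55 at 0 Gy. The groups did not overlap, and the change was -1.12 ± 0.18 (SE, adjusted p = 1.76e-05) at chr9:98489251-98489310 (mm9, minus strand), from a dim probe that was well above background on 5 of 9 irradiated and 4 of 5 unirradiated arrays. Mrps16, the counterpart of bacterial S16, whose loss in humans causes a fatal respiratory chain disease, stood at -2.52 at the lowest, -2.02 at the median and -1.34 at the highest after 7 Gy and at -0.98, -1.29, -0.95, -1.005 and -0.80 at 0 Gy. All irradiated arrays lay below all unirradiated ones, narrowly for array 9, and the change was -0.93 ± 0.16 (SE, adjusted p = 3.37e-05).

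The 3 proteins related to bacterial S18 gave unlike values. Mrps18b, in the small subunit, stood at -3.49 at the lowest, -3.00 at the median and -1.99 at the highest after 7 Gy and at -2.06, -1.60, -2.14, -1.86 and -1.82 at 0 Gy in KO-labelled arrays, with only array 9 inside the unirradiated range. It was lower, with a log2 change of -0.91 ± 0.19 (SE, adjusted p = 0.000295). Mrps18c, also in the small subunit, changed by -0.11 ± 0.13 (SE, adjusted p = 0.499), and Mrps18a, in the large subunit, by -0.068 ± 0.20 (SE, adjusted p = 0.801). Neither passed the test, and a difference among the 3 was not tested.

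Of the remaining small-subunit genes named by rule, Mrps5, part of the decoding region and tied to lifespan in mouse strains, was lower, with a log2 change of -0.50 ± 0.20 (SE, adjusted p = 0.0464), from a probe well above background on 3 of 9 irradiated arrays. The call ended when any of 15 arrays was left out (adjusted p = 0.0506 to 0.157) and under median scaling, the percentile over all probes, quantile normalization and normexp, where the change turned to 0.67. It ended too with the replicate block (adjusted p = 0.0585), no filter, near-identical arrays averaged and without the 3 arrays of widely varying repeat spots. Mrps12, the counterpart of the bacterial protein that guards decoding accuracy, changed by -0.43 ± 0.21 (SE, adjusted p = 0.0934) and Mrps27, an RNA-binding protein with pentatricopeptide repeats, by 0.44 ± 0.31 (SE, adjusted p = 0.251). Neither passed, although Mrps12 did with the replicate block, at -0.49 (adjusted p = 0.00719). Mrps36, the dehydrogenase component, changed by -0.21 ± 0.18 (SE, adjusted p = 0.348) with its brighter probe, which did not pass, and by -0.39 (adjusted p = 0.0104) with its other one.

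Against this direction, Mrpl48 and Mrps6 were higher. Mrpl48, a large-subunit protein specific to mitochondria, stood at -1.56 at the lowest, -1.22 at the median and -0.44 at the highest after 7 Gy and at -1.61, -1.87, -1.72, -1.59 and -1.64 at 0 Gy in KO-labelled arrays. All 9 irradiated arrays were above all unirradiated ones, and the change was 0.64 ± 0.15 (SE, adjusted p = 0.00137). Mrps6, the counterpart of bacterial S6, stood at -3.60 at the lowest, -3.14 at the median and -2.81 at the highest after 7 Gy and at -3.73, -3.55, -3.97, -3.75 and -3.18 at 0 Gy. These groups overlapped, and the change was 0.43 ± 0.15 (SE, adjusted p = 0.0182). Both were higher under every scaling run, while the call of Mrpl48 ended under median scaling (adjusted p = 0.114) and that of Mrps6 under median scaling (adjusted p = 0.243), normexp (adjusted p = 0.191) and without unirradiated array 3 (adjusted p = 0.0711). The Mrps6 call ended too with no filter, near-identical arrays averaged and without the slide of KO-labelled arrays 6 to 9.

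**Figure D2:**
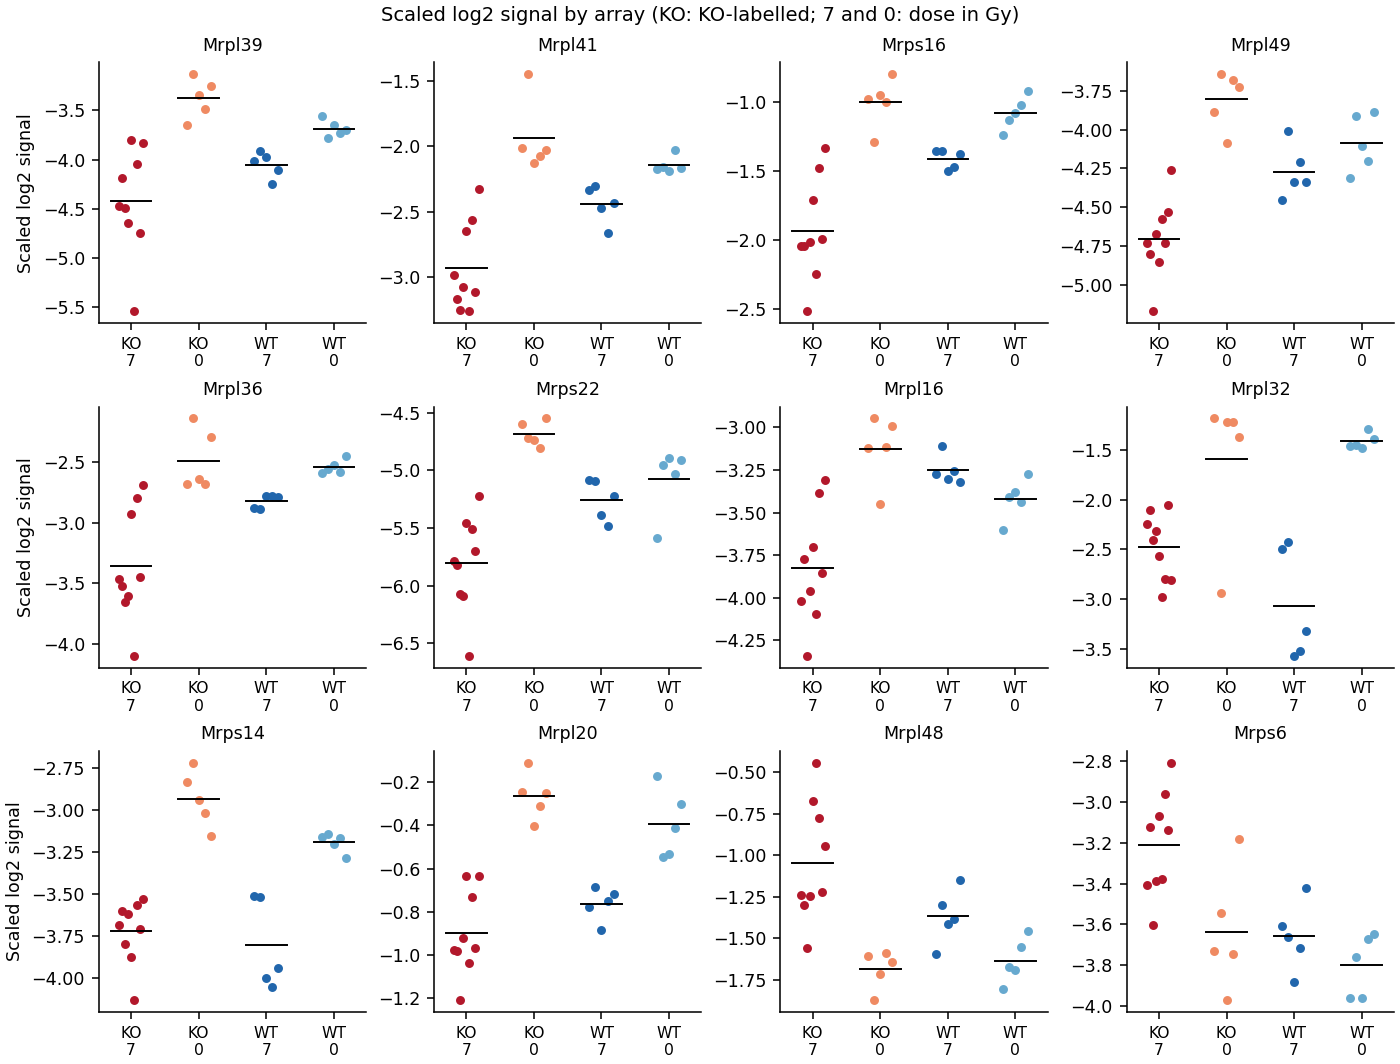
Scaled log2 signal of named mitochondrial ribosomal protein genes on every array, with KO-labelled 7 Gy, KO-labelled 0 Gy, WT 7 Gy and WT 0 Gy from left to right and a bar at each group's mean. Mrpl41, Mrpl39 and Mrps16 separate the KO-labelled groups, Mrpl32 separates the WT groups, and Mrpl48 is higher in irradiated KO-labelled arrays.

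In WT, few of these genes passed the test. Of 77, 3 were lower at 7 Gy than at 0 Gy and 0 were higher, or 3.90% lower, where 14.0% of all genes were lower and 10.3% higher. With no adjustment, 8 had p under 0.05. The median change was -0.15, against -0.054 over all genes. Below 0 were 49 of 77 changes, and 8508 of the 15787 changes of all genes. The groups did not overlap, lower at 7 Gy, for 15 genes, a share close to the 16.8% of all genes. Within slides the median change ran from -0.19 to -0.060. With the replicate number as a block, 6 were lower and 2 higher, and without WT 7 Gy arrays 3 to 5, which stand apart, none passed. The count with no adjustment and those under these settings have no share of all genes beside them. They do not place the 77 genes against all genes.

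Mrpl32, the large-subunit protein that the m-AAA protease must trim before it can join the ribosome, had the largest WT change. It stood at -2.50, -2.42, -3.57, -3.52 and -3.32 on WT arrays at 7 Gy and at -1.46, -1.45, -1.48, -1.29 and -1.39 at 0 Gy. All irradiated arrays lay below all unirradiated ones, and arrays 3 to 5 lay below arrays 1 and 2. The change was -1.65 ± 0.29 (SE, adjusted p = 0.000177), a 3.14-fold lower signal at chr13:14702894-14702953 (mm9, minus strand). Without WT 7 Gy arrays 3 to 5 it was -1.05 (adjusted p = 0.0711), and under normexp -0.93 (adjusted p = 0.135). In KO-labelled arrays Mrpl32 stood at -2.98 at the lowest, -2.41 at the median and -2.05 at the highest after 7 Gy and at -1.18, -2.94, -1.22, -1.22 and -1.37 at 0 Gy. Unirradiated array 2, whose repeat spots vary widely, was as low as the irradiated arrays there, and the change was -0.89 ± 0.26 (SE, adjusted p = 0.00618) with all arrays and -1.24 ± 0.22 (SE, adjusted p = 0.00012) without the 3 arrays of widely varying repeat spots. With the replicate block it was -0.74 (adjusted p = 0.0508).

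Mrps14, the counterpart of bacterial S14, and Mrpl20, the counterpart of L20, were the other 2 lower in WT. Mrps14 stood at -3.51, -3.52, -4.00, -4.05 and -3.94 at 7 Gy and at -3.16, -3.14, -3.20, -3.17 and -3.29 at 0 Gy in WT, without overlap and lower, with a log2 change of -0.61 ± 0.15 (SE, adjusted p = 0.00294). Mrpl20 stood at -0.78, -0.68, -0.89, -0.75 and -0.72 at 7 Gy and at -0.17, -0.55, -0.53, -0.41 and -0.30 at 0 Gy, lower, with a log2 change of -0.37 ± 0.13 (SE, adjusted p = 0.0419). The call of Mrps14 ended without WT 7 Gy arrays 3 to 5 (-0.32, adjusted p = 0.311), under median scaling (adjusted p = 0.14) and under normexp, where it turned to 0.11. The call of Mrpl20 ended when any of 9 arrays was left out (adjusted p = 0.0515 to 0.111). It also ended under median scaling, the percentile over all probes, normexp, no filter, near-identical arrays averaged, and without the 3 arrays of widely varying repeat spots or WT 7 Gy arrays 3 to 5 (adjusted p = 0.074 to 0.376). All 3 genes were also lower in irradiated KO-labelled arrays, where Mrps14 changed by -0.79 ± 0.13 (adjusted p = 2.21e-05) and Mrpl20 by -0.64 ± 0.12 (adjusted p = 7.91e-05). The genes lower under the KO label alone numbered 40, those higher there 2, and 32 passed in neither response.

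Mrpl57 in WT was moved by 1 array. It stood at -0.52, -0.58, -0.76, -0.49 and -0.69 at 7 Gy and at -5.45, 0.23, 0.078, 0.15 and 0.13 at 0 Gy. WT 0 Gy array 1 was not well above background and stood alone, while the other 4 unirradiated arrays were above all irradiated ones. The change was 0.37 ± 0.71 (SE, adjusted p = 0.792) with all arrays, and -0.75 ± 0.23 (SE, adjusted p = 0.0218) without the 3 arrays of widely varying repeat spots.

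**Figure D3:**
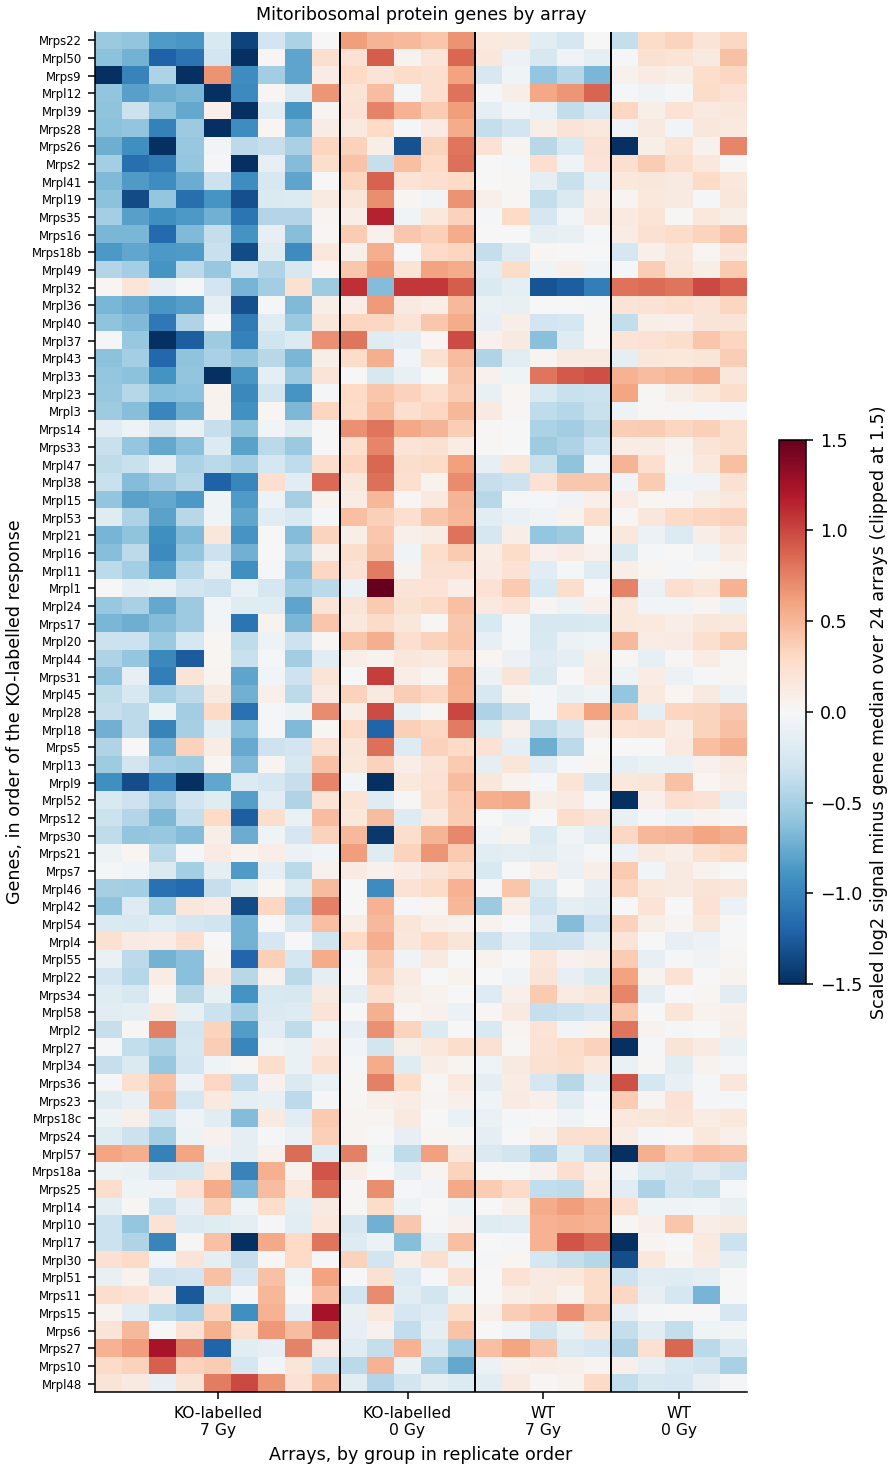
Level of each of the 77 tested genes on each of the 24 arrays minus that gene's median over all arrays (colour, log2, clipped at 1.5), with genes in order of their KO-labelled response and KO-labelled arrays left of WT. The upper genes are mostly below their median on irradiated KO-labelled arrays, less so on array 9, and the WT columns differ less.

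Whether the response differed between labels was tested directly, as the KO-labelled response minus the WT response. Of 77 genes, 6 had a more negative response under the KO label and 0 a more positive one, or 7.79%, where 13.5% of all genes were more negative and 3.41% more positive. The median difference was -0.40, against -0.22 over all genes. The difference was below 0 in 67 of 77 genes, and in 9418 of all 15787 genes. Within slides the median difference ran from -0.70 to -0.35. The count is sensitive, and the counts that follow here have no share of all genes beside them. They do not place the 77 genes against all genes. The count was 13 with slide as a random block and 21 without KO-labelled 7 Gy array 9. With the replicate number as a block it was 28, but KO-labelled 7 Gy arrays 6 to 9, each alone in its number, then add nothing. The count was 0 with median scaling, with the percentile over all probes, with quantile normalization and with normexp.

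The 6 genes are from both subunits. Mrps22 responded by -1.12 under the KO label and -0.18 in WT, a difference of -0.95 ± 0.27 (SE, adjusted p = 0.0206). Mrpl16, the counterpart of the bacterial protein L16 near the peptidyl transferase centre, differed most clearly by adjusted p. It stood at -4.34 at the lowest, -3.85 at the median and -3.31 at the highest in irradiated KO-labelled arrays and at -3.12, -2.95, -3.45, -3.11 and -2.99 at 0 Gy, against -3.28, -3.11, -3.30, -3.26 and -3.32 in irradiated WT arrays and -3.60, -3.41, -3.38, -3.44 and -3.27 at 0 Gy. The KO-labelled groups overlap only through unirradiated array 3 and irradiated arrays 7 and 9, and the WT groups overlap with the irradiated arrays on the higher side. Its difference was -0.87 ± 0.22 (SE, adjusted p = 0.0117).

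Mrpl24, the counterpart of bacterial L24 at the exit tunnel, differed by -0.76 ± 0.22 (adjusted p = 0.0215) and Mrps35, a mitochondria-specific small-subunit protein, by -0.88 ± 0.28 (adjusted p = 0.0337). Mrpl49 differed by -0.71 ± 0.21 (adjusted p = 0.0223) and Mrpl41 by -0.70 ± 0.24 (adjusted p = 0.0464). Without the 3 arrays of widely varying repeat spots, 4 of the 6 no longer passed: Mrps22 (adjusted p = 0.0672), Mrpl49 (adjusted p = 0.0717), Mrps35 (adjusted p = 0.0941) and Mrpl41 (adjusted p = 0.141). The call of Mrpl41 ended when any of 19 arrays was left out, and that of Mrps35 when any of 7 was. Without KO-labelled 7 Gy array 5, Mrpl12 passed as well, at -1.11 ± 0.35 (SE, adjusted p = 0.0297). Across the 77 genes the responses had a Pearson r of 0.44 and a Spearman rho of 0.46, against 0.64 and 0.55 over all genes. Genes are not independent replicates and share the arrays, so this is a description.

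**Figure D4:**
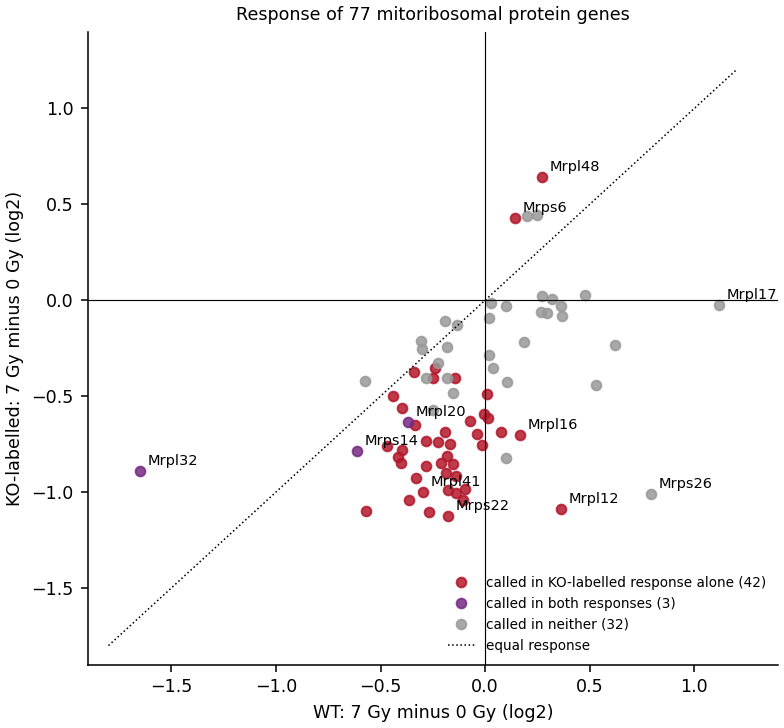
Log2 response to 7 Gy of each tested mitochondrial ribosomal protein gene under the KO label (y axis) against its response in WT (x axis), coloured by whether it was called in both responses, under the KO label alone or in neither. Of the 77 points, 67 lie below the diagonal of equal response, and Mrpl32 has the most negative WT response.

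At 7 Gy, 13 of the 77 genes were lower and 1 higher in KO-labelled than in WT arrays, or 16.9% lower, where 18.6% of all genes were lower and 4.86% higher. This comparison shares its arrays with both responses above. The median difference was -0.31, against -0.11 over all genes. The groups overlapped for every one of the 77, while 5.14% of all genes were lower without overlap. Within slides the median difference ran from -0.52 to -0.11. The counts under other settings that follow have no share of all genes beside them. They do not place the 77 genes against all genes. The number lower was 21 with slide as a random block, 33 with the replicate number as a block and 25 without KO-labelled 7 Gy array 9. There were 1 lower and 3 higher with the percentile over all probes, 1 lower and 2 higher with quantile normalization, and 0 of either with median scaling, with normexp and without WT 7 Gy arrays 3 to 5.

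Mrpl33 had the largest difference at 7 Gy. It stood at -2.39 at the lowest, 0.28 at the median and 1.06 at the highest in KO-labelled arrays and at 0.94, 0.81, 1.67, 1.79 and 1.84 in WT. The groups overlap only through KO-labelled array 9 and WT arrays 1 and 2, and the difference was -1.35 ± 0.36 (SE, adjusted p = 0.00794). It was -1.05 ± 0.20 (SE, adjusted p = 0.000661) without KO-labelled array 5, and -0.82 (adjusted p = 0.381) without WT arrays 3 to 5. Mrps35 differed by -0.66 ± 0.19 (adjusted p = 0.0112), Mrps16 by -0.52 ± 0.16 (adjusted p = 0.0176) and Mrpl16 by -0.57 ± 0.15 (adjusted p = 0.00666). The gene higher in KO-labelled arrays was Mrps6, by 0.45 ± 0.15 (adjusted p = 0.0284). It stood at -3.60 at the lowest, -3.14 at the median and -2.81 at the highest in KO-labelled arrays and at -3.61, -3.66, -3.89, -3.72 and -3.42 in WT. That call ended without WT array 3 (adjusted p = 0.0877) or 4 (adjusted p = 0.0664). It also ended under median scaling, normexp, no filter and near-identical arrays averaged. Leaving out WT 7 Gy arrays 3 to 5, or the slide of KO-labelled arrays 6 to 9, ended it too.

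At 0 Gy, 0 of the 77 genes passed the test between labels, where 0.120% of all genes were lower and 0.380% higher in KO-labelled arrays. With no adjustment, 2 had p under 0.05, and 12 higher and 1 lower passed when arrays were weighted by quality. These counts have no share of all genes beside them and do not place the 77 genes against all genes. The median difference was 0.15, against 0.063 over all genes, with 60 of the 77 genes and 8928 of all 15787 genes above 0. The largest difference without overlap was that of Mrps22, at -4.60, -4.72, -4.74, -4.81 and -4.55 in KO-labelled arrays and -5.58, -4.95, -4.90, -5.03 and -4.91 in WT, 0.39 ± 0.20 (SE, adjusted p = 0.548).

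The ribosome's other proteins and the machinery around it were also read. Of 5 further proteins of the mitochondrial ribosome, whose genes carry other names, 3 were lower in irradiated KO-labelled arrays and 0 in WT. The shares of all genes lower were 36.3% under the KO label and 14.0% in WT. The 3 were Ptcd3, an RNA-binding small-subunit protein (-1.28), Chchd1 (-0.95) and Dap3, a GTP-binding small-subunit protein known for a part in apoptosis (-0.62). Aurkaip1 changed by -0.38 ± 0.16 (adjusted p = 0.0542) and did not pass. Gadd45gip1, the large-subunit protein found through its binding of Gadd45 proteins, changed by -0.22 ± 0.12 (adjusted p = 0.122) and did not pass, while at 7 Gy it was lower in KO-labelled than in WT arrays, with a difference of -0.33 ± 0.12 (adjusted p = 0.0457).

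Assembly factors of the mitochondrial ribosome were lower in 14 of 22 cases and higher in 0 in irradiated KO-labelled arrays, against 4 lower of 22 in WT, where 36.3% and 14.0% of all genes were lower. Under the KO label the RNA helicase Dhx30 (-1.74) and the rRNA methyltransferases Mettl15 (-1.51) and Mrm1 (-1.31) changed most. Mrm1 (-1.37) and Mettl15 (-1.04) were also lower in WT. Translation factors and mRNA handling proteins were lower in 9 of 13 under the KO label and in 1 in WT, led by Lrpprc, which stabilises mitochondrial mRNAs (-1.74 under the KO label and -0.91 in WT). Genes that charge mitochondrial tRNAs were lower in 10 of 17 under the KO label and in 3 in WT, with Qrsl1, which makes glutaminyl-tRNA, at -1.78 and -1.58.

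Genes that copy and transcribe mitochondrial DNA, or regulate this, were lower in 11 of 14 under the KO label and in 4 in WT. The shares of all genes lower were 36.3% under the KO label and 14.0% in WT. Tfam, which packages mitochondrial DNA and starts its transcription, changed by -2.20 ± 0.22 (SE, adjusted p = 3.23e-08) under the KO label and by -1.36 ± 0.25 (SE, adjusted p = 0.000232) in WT. The median change of this list under the KO label was -1.25, against -0.57 for the 77 ribosomal protein genes. Genes of oxidative phosphorylation, whose mitochondrial subunits this ribosome makes, were lower in 26 and higher in 14 of 81 under the KO label, or 32.1% and 17.3%, close to the shares of all genes, and lower in 14 and higher in 2 in WT, or 17.3% lower.

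The cytosolic ribosome, which makes all other proteins of the cell, was read beside it. Its 79 tested genes were lower in 30 and higher in 10 cases in irradiated KO-labelled arrays, or 38.0% and 12.7%, shares close to the 36.3% and 14.0% of all genes, with a median of -0.21, and lower in 35 and higher in 1 in WT, or 44.3% lower, where 14.0% of all genes were lower, with a median of -0.53. In the direct test of the responses, 7 cytosolic genes (8.86%) were more positive under the KO label and 0 more negative. Of the mitochondrial ones 6 (7.79%) were more negative and 0 more positive. Of all genes, 3.41% were more positive and 13.5% more negative, so the mitochondrial share was below that of all genes. The difference between these lists was not tested itself.

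**Figure D5:**
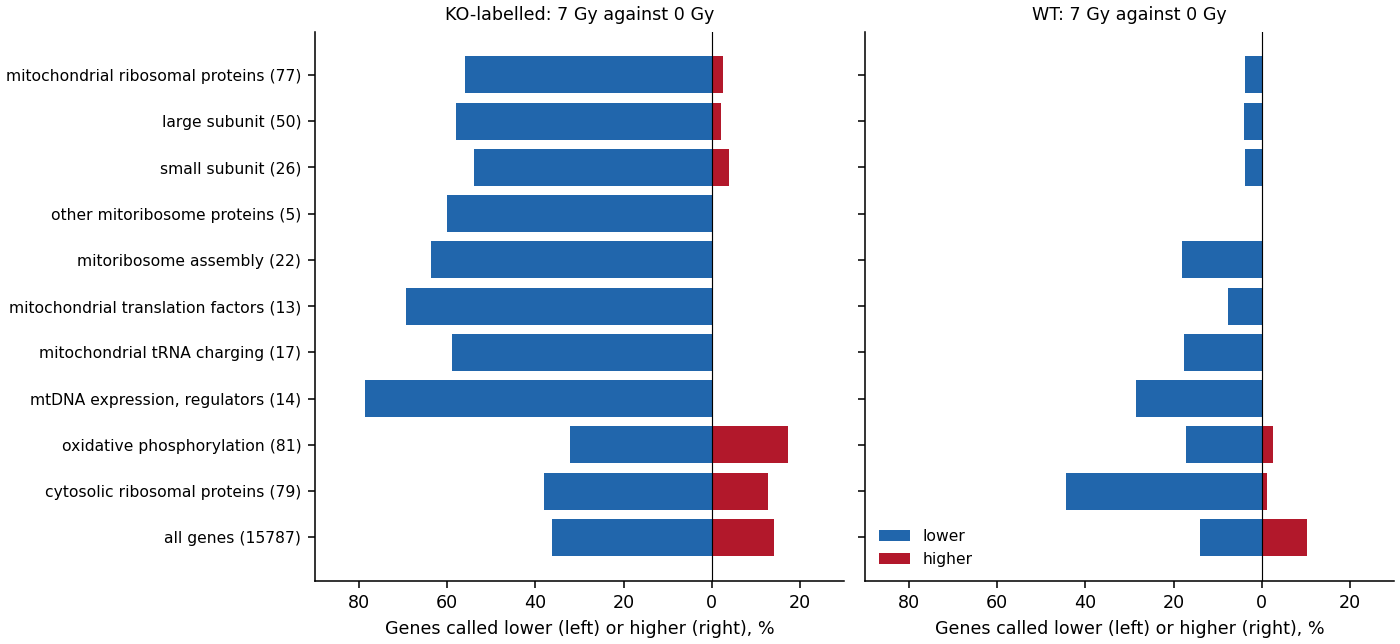
Share of tested genes called lower (left of 0) and higher (right of 0) at 7 Gy against 0 Gy, in percent, for the mitochondrial ribosomal protein genes, the related gene lists and all genes, under the KO label and in WT. Lower calls cover 55.8% of the mitochondrial ribosomal protein genes under the KO label and 3.90% in WT.

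Where genes had several probes, these mostly gave the same sign. Of 18 genes with at least 2 probes kept, the KO-labelled response was called with every probe in 7, with none in 3 and with some in 8. In 1 gene the probes had opposite signs, and in 0 were opposite signs both called. In WT none was called in 17 and some in 1, and 6 had probes of opposite sign.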

How the data were processed

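Each array's intensity values came from one-colour scans read with Agilent Feature Extraction 12.0.2, per the submitters' processing notes. Per the file headers, processed signals are intensities corrected for background and for trends across the slide within an array, and probe coordinates are those of mm9. The authors' deposited value table of 12900 entries, 33 of them tested members' genes, holds log2 values. In each column they lay a fixed step, 0 to 1.54, above the scanner file's log2 processed signals, within 0.05 for 99.3% to 100% of entries. Its column medians ran from 5.75 to 7.18, its scale and direction are settled by this match, and it served as an alternative.

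Each log2 processed signal was scaled by subtracting that array's 75th percentile over 7803 probes that exceed background on every one of the 24 arrays. A probe had to exceed background on 5 or more arrays (19651 of 39429 did), and each gene is given by its probe of highest mean. All 4 groups were fitted together with limma 3.58.1 in R 4.3.3, with two-sided p-values adjusted by Benjamini-Hochberg over 15787 genes. Errors of changes are SE. The script was tested on simulated data. Figures used matplotlib 3.10.9.

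Depth on an array is signal over background: the 75th percentile ran from 641 to 2183, and the number of arrays limits the precision. The members and gene lists were chosen with earlier results of these data known. Genes named were the 5 largest called changes in each direction without overlap and above background on every array of a group, 10 fixed members, the 3 brightest and 3 dimmest, members against the common direction, and up to 3 called genes of each list. Mrpl17, Mrps26 and other names marked in figures were chosen after values were seen.

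Replicate numbers 1 to 5 mark a shared slide per the file headers. Same-numbered arrays' deviations correlated between -0.23 and 0.71, not above 0.1 in every pair, so the block is an alternative. Other alternatives were scaling, background correction, filters, probe choice, array weights, and arrays left out.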

Additional observations from a re-analysis of the deposited data

Results flagged for a closer look

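The 4 groups of each of 28 named members and of the members' median, 116 groups of values in all, were looked at for an array far from its group, by its gap to the nearest array over the group's range. Chance alone picks about 1 in 20 such groups, and 10 were picked here. Among irradiated KO-labelled arrays, array 5 was low in Mrpl12 (ratio 0.604) and in Mrpl33 (0.684). Among unirradiated KO-labelled arrays, array 2, one of the 3 whose repeat spots vary widely, was high in Mrpl41 (0.828) and Mrpl1 (0.849) and low in Mrpl32 (0.894). In irradiated WT arrays, array 2 was high in Mrpl16 (0.711). In unirradiated WT arrays, array 1, whose repeat spots also vary widely, was low in Mrpl57 (0.973) and Mrps22 (0.801), array 4 was high in Mrpl41 (0.805) and array 5 was low in Mrpl33 (0.800).

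A direct test of the difference between responses, KO-labelled minus WT on the log2 scale, picked out 6 genes. That is 7.79% of the 77, where 13.5% of all genes were more negative. They were Mrps22 (-0.95), Mrps35 (-0.88), Mrpl16 (-0.87), Mrpl24 (-0.76), Mrpl49 (-0.71) and Mrpl41 (-0.70). Their cause was not tested.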

How the results depend on the processing

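Counts below are of called members in either direction, without the share of all genes called under the same setting. In the KO-labelled response 45 were called: 14 with median scaling, 27 with the percentile over all probes, 2 with normexp, 15 among 33 in the authors' table, and 39 to 50 with 1 array left out. Its median change minus that of all genes was -0.34, -0.61 in the authors' table, -0.92 with no filter and -0.20 over genes above background on all arrays. In WT 3 were called: 1 with median scaling, 0 with normexp, 1 in the authors' table, 5 without the 3 arrays of widely varying repeat spots, 0 without WT 7 Gy arrays 3 to 5, 8 with the replicate block, 35 with array weights, and 2 to 5 with 1 array left out. Between labels at 0 Gy the 0 became 13 with array weights and stayed 0 with any 1 array left out. At 7 Gy the 14 became 0 with median scaling, 4 with all probes and 3 with quantile normalization, both then mostly higher, 0 with normexp, 2 in the authors' table, 3 with no filter, 4 with near-identical arrays averaged, 0 without WT 7 Gy arrays 3 to 5, 22 with the slide block, 35 with the replicate block, 48 with array weights, and 6 (without WT array 5) to 26 (without KO-labelled array 9) with 1 array left out. The median relative to all genes there, -0.20, turned to 0.058 with normexp and was -0.52 with no filter. Of differences between responses, 6 became 0 with median scaling, all probes, quantile normalization, normexp, the authors' table and no filter. They became 1 with near-identical arrays averaged, 2 without the widely varying arrays, 2 without WT 7 Gy arrays 3 to 5, 13 with the slide block, 28 with the replicate block, 49 with array weights, and 4 to 21 with 1 array left out. Their median relative to all genes was -0.18, -0.42 in the authors' table, -0.62 with no filter, -0.034 with normexp, and -0.32 with the replicate block, with array weights and without the slide of KO-labelled arrays 6 to 9.

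Settings added after seeing the data gave, without the slide of KO-labelled arrays 6 to 9, 6 in WT, 29 between labels at 7 Gy and 26 between responses, and without 3 arrays of low detection 5 in WT and 3 between responses. Of the members called as reported, the replicate block kept 41 of 45 in the KO-labelled response, 3 of 3 in WT, 14 of 14 at 7 Gy and 6 of 6 between responses. For KO-labelled 7 Gy that block rests on arrays 1 to 5, so it differs from the reported fit in its arrays as well. Directions of named genes turned in 8 cases: Mrpl57 in WT without the widely varying arrays (-0.75), and with normexp Mrps14 in WT (0.11) and, under the KO label, Mrps5 (0.67), Mrpl44 (0.33), Mrpl37 (0.54), Mrpl1 (0.59), Mrpl39 (0.037) and Mrpl49 (0.14). The cause was not tested. Counting alike arrays once at a ratio of 1.1 changed nothing, since no pair fell under it. Few arrays, slides shared by groups and a group split over slides limit these results, and dim probes have only a bound on arrays where they are not well above background.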
